A study of Mus musculus with 47 samples.

Results

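Fam25c, Upk3a, Dnajc12, Ramp1, Cck and Fgg are 6 genes, of 21980 measured, that were chosen because their listed levels were low under hormones, and low again when a progesterone receptor antagonist was added, against sham treatment in luminal mature or luminal progenitor cells of the mouse mammary gland. Each symbol (FAM25C, UPK3A, DNAJC12, RAMP1, CCK and FGG as listed) was found once in the deposited table. The genes were selected on the values of both luminal fractions, so the differences from sham in those fractions are given as descriptions without a test. The picture the choice implies did not hold evenly. All 6 genes were below every sham library in luminal progenitor cells. In luminal mature cells 4 were in every treated group, while Ramp1 and Cck overlapped sham in the levels as deposited.

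The animals were ovariectomized FVB female mice, treated for 14 days. One group received estradiol, progesterone and telapristone acetate (EP+TPA), another estradiol, progesterone and mifepristone (EP+RU486), another estradiol and progesterone (EP), and the last was sham treated. Mammary cells were sorted by flow cytometry into luminal mature (LM), luminal progenitor (LP) and mammary stem cell (MSC, the basal fraction) populations, and RNA was sequenced from each. There were 47 libraries from 20 mice, with 4 for every group of a fraction except LM from EP mice, which had 3. Every group, sham included, lacked ovaries, and no group received estradiol alone or an antagonist alone, so effects of estradiol and of progesterone cannot be told apart. Doses and ages were not given in the sources used here.

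Telapristone and mifepristone are steroidal antagonists that bind the progesterone receptor in place of progesterone, and mifepristone also binds the glucocorticoid receptor. In the mammary epithelium the hormone receptors sit mainly in luminal mature cells, which pass the signal on to progenitor and basal cells by secreted factors. The 6 genes belong to different systems. Ramp1 encodes a membrane partner that turns the receptor Calcrl into a receptor for calcitonin gene-related peptide. Cck encodes the peptide hormone cholecystokinin. Fgg encodes the gamma chain of fibrinogen, which the liver assembles with the alpha and beta chains, from Fga and Fgb, into the clotting protein. Upk3a encodes a uroplakin of the plaques that cover the bladder's urothelium. Dnajc12 encodes a co-chaperone of the HSP40 family that, in humans, serves the aromatic amino acid hydroxylases. No role is given here for Fam25c.

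The levels are on the scale of fragments per kilobase and sequenced depth (FPKM), but they had been adjusted gene by gene within 3 sets of libraries. One set holds the 15 LM libraries, another the 16 LP libraries with 6 MSC libraries, and the last the other 10 MSC libraries. A level can be compared within a set and not between sets. In the LM set Fam25c, Upk3a, Ramp1 and Fgg had a lowest listed value of 0. In the other sets Fam25c and Upk3a had a lowest value above 0 that several libraries shared. It was 16.9 for Fam25c in the LP set, and it stands for the bottom of the list and not for expression. For this reason a fold change of Fam25c or Upk3a in LP understates the difference. The level above the lowest value is given beside it for every gene. For Ramp1, Cck, Dnajc12 and Fgg that value was not shared and is the level of a single library. It was 2.44 for Ramp1, in MSC from EP+RU486 mouse 308. It was 3.48 for Cck and 1.70 for Dnajc12, both in MSC from EP mouse 322. It was 23.4 for Fgg, in LP from EP+TPA mouse 312. The shares of sham given for these genes depend on the single library that set the value. All antagonist LP libraries listed Fgg at 23.4 to 24.1, close to its lowest value. A fold change of Fgg in LP may therefore be understated as well. Listed totals ran between 217977 and 358375 per library, and 9397 to 11315 genes per library were above 1. The read depth is unknown.

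Sorted fractions can be mixtures, and their marker RNA differed between treatments. The summed level of 10 progenitor markers in the LM fraction was 325 to 7042 in EP+TPA, 7689 to 8911 in EP+RU486, 304 to 507 in EP and 2933 to 7470 in sham. The summed level of 11 mature markers in the same libraries was 110 to 208 in EP+TPA, 100 to 141 in EP+RU486, 469 to 1530 in EP and 497 to 1420 in sham. The antagonist LM libraries therefore carried less mature and, but for 1 library, more progenitor marker RNA than EP libraries. That library, from EP+TPA mouse 332, had a progenitor sum of 325, while the other EP+TPA libraries had 6079 to 7042. In the LP fraction the progenitor sum was 6042 to 7885 in EP+TPA, 5992 to 7563 in EP+RU486, 530 to 3451 in EP and 5970 to 10663 in sham. Fewer cells of a type and less RNA per cell cannot be told apart in these bulk libraries, and the part of these shifts in the results was not tested.

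To show what stands upstream of the genes that reached the bottom of the list together, windows of 250 bases before the start of Fam25c, Upk3a and Fgg, and of Fgb for its likeness to Fgg, are printed in the gene's direction. They come from RefSeq on build GRCm38.p6, which is not the mm9 build named in the submitters' processing notes. The windows lie at chr14:34355394-34355643 (minus strand) for Fam25c, chr15:85016891-85017140 (plus strand) for Upk3a, chr3:83007474-83007723 (plus strand) for Fgg and chr3:83049864-83050113 (minus strand) for Fgb. Capitals mark matches to a searched motif, apart from the TATA box.
Fam25c: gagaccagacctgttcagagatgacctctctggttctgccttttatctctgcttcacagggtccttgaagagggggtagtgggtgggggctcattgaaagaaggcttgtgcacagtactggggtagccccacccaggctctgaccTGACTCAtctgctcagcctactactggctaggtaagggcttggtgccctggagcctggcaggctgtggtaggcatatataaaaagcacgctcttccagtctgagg
Upk3a: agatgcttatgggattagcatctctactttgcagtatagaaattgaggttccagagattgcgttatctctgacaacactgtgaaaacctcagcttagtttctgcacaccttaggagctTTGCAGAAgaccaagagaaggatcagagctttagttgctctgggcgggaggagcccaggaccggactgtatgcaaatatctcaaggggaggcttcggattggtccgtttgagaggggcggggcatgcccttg
Fgg: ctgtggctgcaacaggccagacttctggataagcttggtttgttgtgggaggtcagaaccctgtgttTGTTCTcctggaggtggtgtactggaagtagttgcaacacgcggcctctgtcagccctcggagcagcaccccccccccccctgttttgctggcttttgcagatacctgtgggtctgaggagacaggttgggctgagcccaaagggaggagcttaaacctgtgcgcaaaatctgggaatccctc
Fgb: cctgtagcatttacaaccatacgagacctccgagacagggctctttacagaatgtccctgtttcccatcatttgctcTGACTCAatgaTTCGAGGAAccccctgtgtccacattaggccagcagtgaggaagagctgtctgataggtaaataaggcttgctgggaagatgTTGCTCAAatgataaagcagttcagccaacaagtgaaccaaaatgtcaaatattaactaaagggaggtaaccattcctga
Windows were found for 5 of the 6 genes, and the search covered both strands. None of these 5 windows, nor that of Fgb, held the palindromic estrogen response element, found in 0.0639% of all 32851 windows, or the progesterone and glucocorticoid receptor element, found in 0.387%. The AP-1 element TGANTCA, in 6.75% of all windows, was matched in Fam25c and Fgb. The C/EBP element TTGCNNAA, in 9.56%, was matched in Upk3a and Fgb. Fgb also held the STAT element TTCNNNGAA, in 7.02% of windows, close to its AP-1 match. Fgg held TGTTCT, one arm of a steroid receptor element, which occurred in 16.1%, and Cck held the forkhead element TGTTTAC, in 3.17%. Fam25c held the TATA box TATAAA, in 12.4%. Ramp1 held none of the motifs, the HNF1 element included. No motif was common to all of the windows.

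In luminal progenitor cells every gene was lower in all 12 hormone-treated libraries than in any sham library. That was so for all 6 genes in each comparison with sham. Among all 11612 genes tested in LP, every library was below sham for 4.35% under EP+TPA, 6.19% under EP and 5.67% under EP+RU486. Since the genes were chosen for this pattern, the count describes the choice. The sizes differed widely between the genes. Upk3a and Fam25c fell to the bottom of the list and Fgg nearly so, whereas Ramp1, Cck and Dnajc12 stayed above it.

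**Figure D1:**
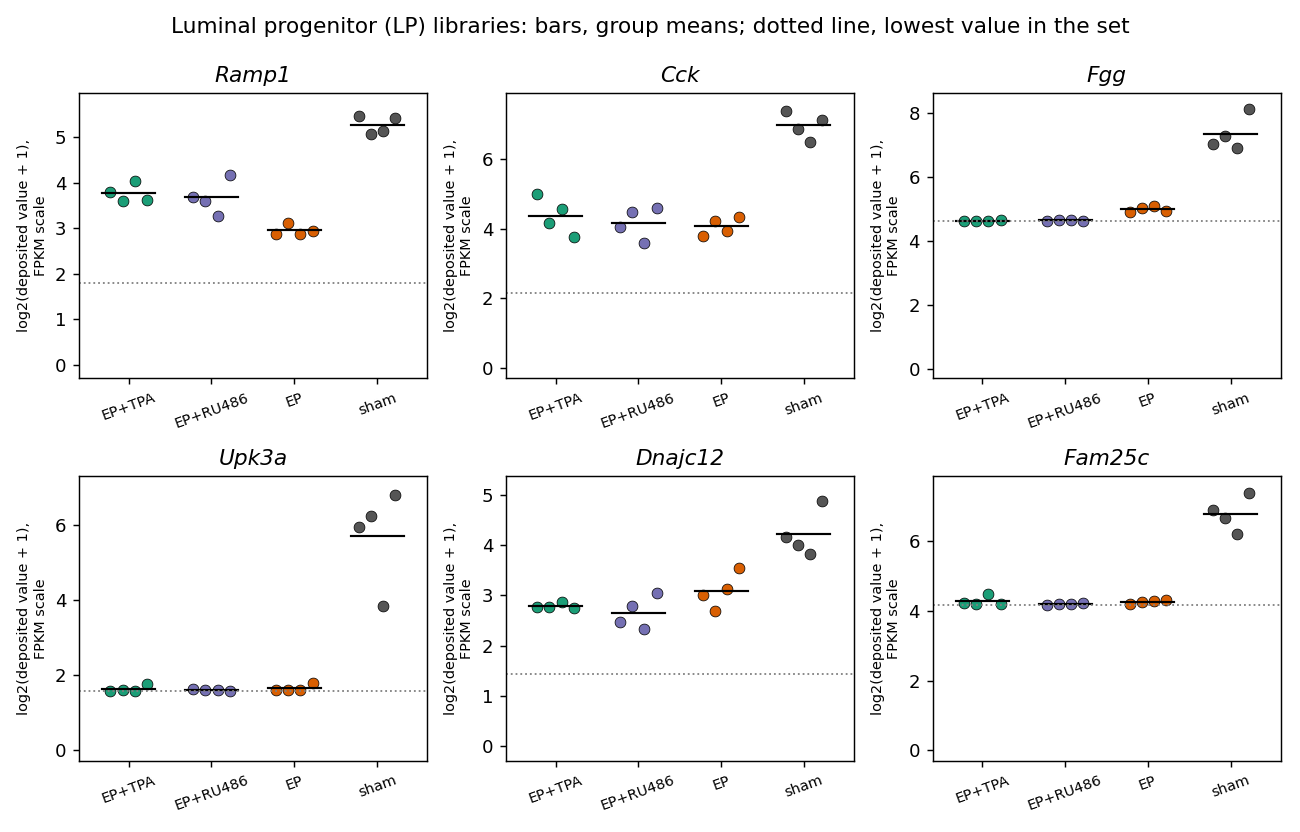
Levels of the 6 genes in the luminal progenitor libraries, as log2(deposited value + 1) on the FPKM scale; each point is 1 mouse, bars are group means and the dotted line is the lowest value listed for that gene in the set. The treated groups lie below sham for every gene, Upk3a and Fam25c lie at the dotted line, and Ramp1 is higher in both antagonist groups than in EP.

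Ramp1 was the gene with a partial return. Its LP levels were 12.9, 11.003, 15.4 and 11.3 with EP+TPA, 11.8, 11.01, 8.59 and 17.0 with EP+RU486, 6.35, 7.70, 6.31 and 6.68 with EP, and 43.1, 32.6, 33.9 and 42.1 with sham. Every antagonist library was above every EP library and below every sham library. Among all genes tested in LP, every library was above EP for 3.28% under EP+TPA and 6.51% under EP+RU486. The mean level above the lowest value was 28.8% of sham with EP+TPA, 27.2% with EP+RU486 and 12.2% with EP. On the log2 scale after rescaling, the difference from EP was 0.95 for EP+TPA and 0.80 for EP+RU486, with a standard error (SE) of 0.15 for each. The difference from sham was -1.63 for EP+TPA, -1.77 for EP+RU486 and -2.57 for EP.

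Cck showed no such order in LP. Its levels were 31.2, 17.0, 22.7 and 12.7 with EP+TPA, 15.6, 21.4, 11.2 and 23.2 with EP+RU486, 12.8, 17.7, 14.2 and 19.3 with EP, and 169, 116, 89.2 and 141 with sham. The treated groups overlapped one another and left a wide gap to sham. The mean above the lowest value was 13.9% of sham with EP+TPA, 11.5% with EP+RU486 and 10.02% with EP. The log2 difference from sham was -2.72 with EP+TPA, -2.98 with EP+RU486 and -3.19 with EP, with an SE of 0.25.

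Fgg as deposited was lower still in LP when an antagonist was added. Its LP levels were 23.4, 23.7, 23.7 and 24.1 with EP+TPA, 23.6, 24.1, 24.1 and 23.7 with EP+RU486, 29.1, 31.7, 32.7 and 29.6 with EP, and 128, 155, 117 and 275 with sham. All 8 antagonist libraries were below all 4 EP libraries as deposited, a position that 15.9% of tested genes had under EP+TPA and 15.6% under EP+RU486. After rescaling, the EP+TPA and EP groups overlapped. The log2 difference from EP was then -0.19 with EP+TPA and -0.25 with EP+RU486, with an SE of 0.17 for each. The rescaling multiplied the whole Fgg level, since no libraries shared its lowest value exactly. As deposited all antagonist libraries lay close to that value, so the overlap and these differences depend on that choice. Above the lowest value the mean was 0.224% of sham with EP+TPA, 0.311% with EP+RU486 and 5.05% with EP.

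Upk3a varied in sham, with 1 library far below the others. Its LP levels were 1.97 to 2.35 with EP+TPA, 1.97 to 2.04 with EP+RU486, 2.01 to 2.44 with EP, and 60.0, 74.2, 13.1 and 111 with sham. The lowest value listed was 1.97, so each treated library sat at or just above it. The mean above that value was 0.173% of sham with EP+TPA, 0.0670% with EP+RU486 and 0.256% with EP.

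Dnajc12 kept the largest share of its sham level under EP, and a smaller share than Ramp1 under the antagonists. Its LP levels were 5.85, 5.78, 6.28 and 5.72 with EP+TPA, 4.57, 5.87, 4.02 and 7.23 with EP+RU486, 7.04, 5.47, 7.74 and 10.7 with EP, and 16.9, 15.1, 13.1 and 28.6 with sham. The highest EP library lay close to the lowest sham library. The mean above the lowest value was 25.1% of sham with EP+TPA, 22.2% with EP+RU486 and 36.1% with EP.

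Fam25c was at or near its lowest value of 16.9 in all treated LP libraries. Its levels were 17.3 to 21.4 with EP+TPA, 16.9 to 17.8 with EP+RU486, 17.3 to 18.9 with EP, and 119, 101, 73.0 and 165 with sham. The mean above the lowest value was 1.54% of sham with EP+TPA, 0.419% with EP+RU486 and 1.24% with EP.

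In LP the sham mice kept a similar rank from gene to gene, which was not so in LM. Mouse 326 had the highest LP level for 4 of the 6 genes and mouse 310 the lowest for 5 of 6. In LM mouse 301 was highest for 2 genes and lowest for 4, and mouse 305 was highest for 3. The LM library of mouse 301 had a mature marker sum of 497, against 998 to 1420 in the other sham libraries. Its progenitor marker sum was 7470, against 2933 to 4287 in the others. The part of these sums in the ranks was not tested. Across the 16 LP libraries the Pearson r of log2 levels between 2 of these genes was between 0.811 for Dnajc12 with Ramp1 and 0.989 for Fam25c with Fgg. These correlations describe libraries that share the sham contrast used in the choice.

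In luminal mature cells Fam25c, Upk3a, Fgg and Dnajc12 were below every sham library in each treated group. That makes 4 of 6 genes, where among all 11933 genes tested in LM every library was below sham for 7.68% under EP+TPA, 13.9% under EP+RU486 and 10.1% under EP. Fam25c was listed at 0 in all treated LM libraries, and at 194, 367, 236 and 305 in sham. Upk3a was listed at 0 in the same treated libraries, and at 40.1, 86.1, 42.9 and 133 in sham. No fold is given for either gene in LM.

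Fgg was listed at 0 in all LM libraries of EP+TPA and EP+RU486, at 0, 110 and 0 in EP, and at 152, 505, 408 and 443 in sham. The 1 EP library with Fgg came from mouse 311, and it also had Fgb at 12.5 where the other EP libraries had 0. It had the highest mature marker sum of the EP libraries, 1530 against 592 and 469 in the other EP libraries. Its progenitor marker sum was also the highest of these, 507 against 430 and 304. The part of either sum in the Fgg level was not tested. The fitted log2 difference of Fgg between EP and sham was -6.19, a size that depends on the constant added before the logarithm.

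Dnajc12 kept low but measurable levels in LM. They were 0.365, 1.72, 0.795 and 1.51 with EP+TPA, 0.407, 0.605, 1.05 and 0.967 with EP+RU486, 1.505, 2.17 and 2.71 with EP, and 21.5, 51.9, 37.3 and 48.9 with sham. Each EP+RU486 library was below each EP library, as 25.2% of tested LM genes were, and the EP+TPA libraries overlapped EP. The log2 difference from sham was -4.30 (SE 0.27) with EP+TPA, -4.51 (SE 0.27) with EP+RU486 and -3.80 (SE 0.29) with EP.

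**Figure D2:**
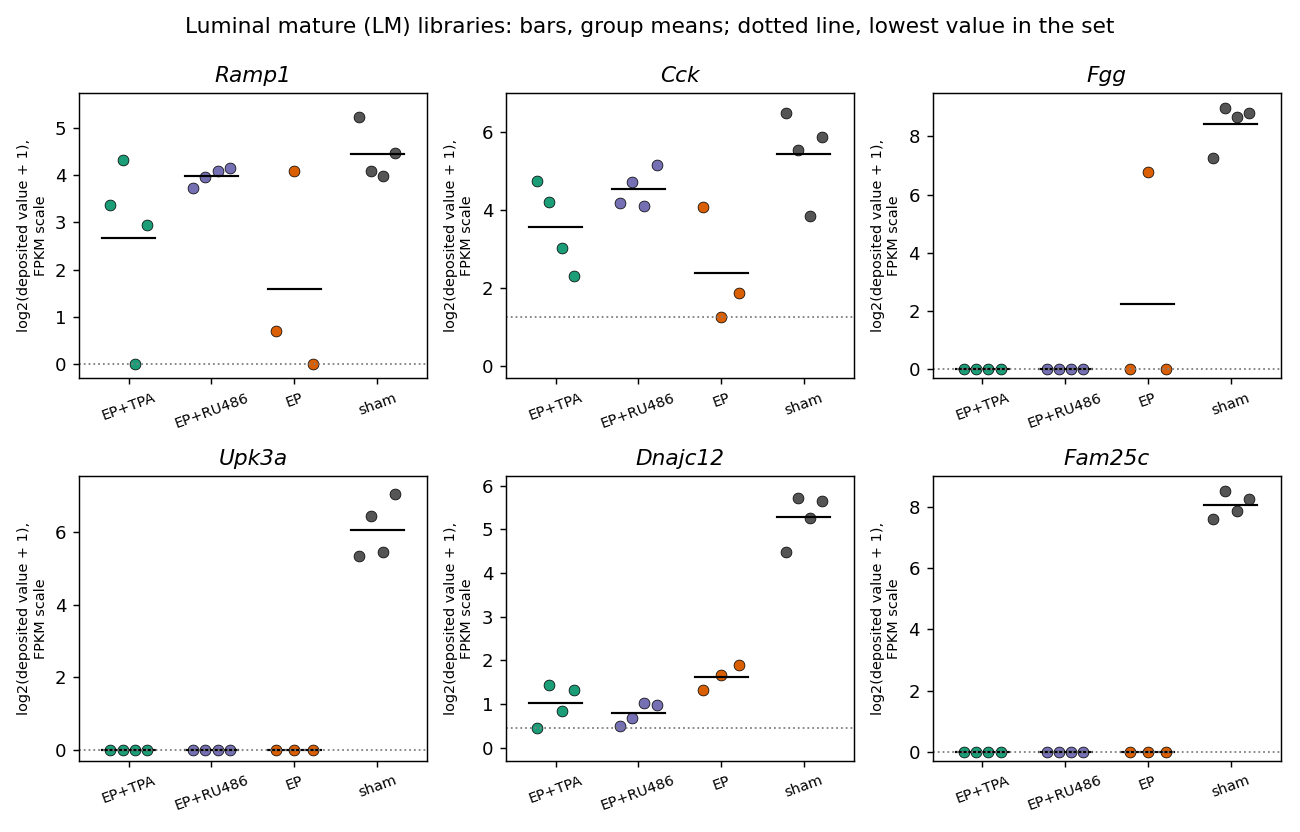
Levels of the 6 genes in the luminal mature libraries, as log2(deposited value + 1) on the FPKM scale; each point is 1 mouse and bars are group means. Fam25c, Upk3a and, but for 1 EP library at 110, Fgg are listed at 0 in the treated groups, while Ramp1 and Cck with EP+RU486 overlap sham.

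Ramp1 went against the group's name in LM. Its levels were 9.32, 18.8, 0 and 6.73 with EP+TPA, 12.2, 14.6, 16.0 and 16.6 with EP+RU486, 0.618, 16.0 and 0 with EP, and 36.6, 16.1, 14.7 and 21.2 with sham. The EP+RU486 libraries lay within or just under the sham range, and so did 1 EP library. The EP+TPA library at 0 was that of mouse 332, the library with few progenitor markers. The log2 difference from sham was -1.79 (SE 0.94) with EP+TPA, -0.48 (SE 0.94) with EP+RU486 and -2.90 (SE 1.01) with EP. Without mouse 332 the EP+TPA difference was -0.89, and without mouse 311 the EP difference was -4.19.

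Cck as deposited also overlapped sham in LM. Its levels were 25.8, 17.5, 7.14 and 4.01 with EP+TPA, 17.1, 25.4, 16.2 and 34.8 with EP+RU486, 15.9, 1.40 and 2.66 with EP, and 89.0, 45.8, 13.4 and 57.6 with sham. The lowest sham library, from mouse 310 at 13.4, lay among the treated ones. After rescaling every EP library was below it, the highest at 13.74 against 13.85 in that sham library, so that 5 of 6 genes were then below sham under EP. The log2 difference from sham was -1.91 (SE 0.70) with EP+TPA, -0.91 (SE 0.70) with EP+RU486 and -3.21 (SE 0.75) with EP. All EP+RU486 libraries were above all EP libraries, which 13% of tested LM genes also showed. The log2 difference from EP was 2.30 (SE 0.75) for EP+RU486 and 1.304 (SE 0.75) for EP+TPA. Across the 15 LM libraries the r of Ramp1 or Cck with the other 4 genes was between 0.312 and 0.580, whereas Fam25c and Upk3a had an r of 0.995.

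In levels as deposited, the count of genes with every library below sham was 5 of 6 for EP in LM without mouse 311, against 4 with it, and 4 of 6 for EP+TPA without mouse 332. In LP it was 6 of 6 for EP also without mouse 311.

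Telapristone and mifepristone are related steroids, and the sources used here do not give doses, so the groups are matched by time alone. The 6 genes in 3 fractions make 18 comparisons of EP+TPA with EP+RU486. The choice used the luminal values and asked both groups to be low, so the luminal differences are given as descriptions, and the 6 comparisons in MSC are the ones that the choice did not use. None of those 6 passed an adjusted p under 0.05 in limma, with p-values adjusted over all genes tested. Across all genes limma called 0 of 11933 in LM, 0 of 11612 in LP and 0 of 12007 in MSC, or 0% in each, while 1594, 200 and 195 had an unadjusted p under 0.05. The intervals leave room for differences of different size. In LP the log2 difference was 0.15 for Ramp1 (95% interval -0.18 to 0.47), 0.26 for Cck (-0.28 to 0.80), 0.06 for Fgg (-0.30 to 0.41) and 0.19 for Dnajc12 (-0.24 to 0.61). In LM the intervals were wide, -0.99 for Cck (-2.49 to 0.51) and -1.31 for Ramp1 (-3.35 to 0.72). In MSC the Cck difference was 0.58 (-0.01 to 1.18) with an adjusted p of 0.9997 in limma.

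In the mammary stem cell fraction no treatment contrast moved any of the 6 genes past the threshold. The EP+TPA, EP+RU486 and EP groups against sham and the antagonists against EP make 30 comparisons, of which 0 were called, and limma called 0 of 12007 genes, or 0%, in each of the 5 contrasts. Unadjusted p-values under 0.05 were seen for 405 genes with EP+TPA against sham, 412 with EP+RU486 against sham, 637 with EP against sham, 846 with EP+TPA against EP and 576 with EP+RU486 against EP. With library weights, 1098 genes were called between EP and sham, Fgg among them. The MSC libraries differed widely in basal and endothelial marker RNA, and the part of that in these counts was not tested.

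Fgg had the lowest unadjusted p of the 6 for EP against sham in MSC. In the larger MSC set its levels were 52.7, 51.0 and 68.5 with EP+TPA, 47.3 and 51.4 with EP+RU486, 60.8 and 75.7 with EP, and 82.2, 70.0 and 103 with sham. In the set shared with LP they were 41.5 with EP+TPA, 35.8 and 49.3 with EP+RU486, 27.5 and 36.9 with EP, and 52.5 with sham. As deposited the antagonist libraries lay below sham within each set. After rescaling they overlapped sham, with 81.5 in EP+TPA mouse 323 and 78.5 in EP+RU486 mouse 324 against 56.9 in sham mouse 305. The fitted log2 difference from sham was -0.20 (SE 0.26) with EP+TPA, -0.48 (SE 0.27) with EP+RU486 and -0.63 (SE 0.27) with EP, with adjusted p in limma of 0.999, 0.9998 and 0.933.

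Ramp1 in MSC turned on single libraries. Its levels in the larger set were 6.01, 8.76 and 6.47 with EP+TPA, 5.99 and 8.97 with EP+RU486, 9.55 and 26.9 with EP, and 6.23, 27.4 and 5.86 with sham. In the other set they were 3.44 with EP+TPA, 2.44 and 2.70 with EP+RU486, 2.49 and 10.7 with EP, and 3.10 with sham. The high libraries came from EP mice 327 and 322 and sham mouse 326. In the larger set EP mouse 327 and sham mouse 326 had basal marker sums of 3712 and 3645, and the others had 127 to 1510. In the other set EP mouse 322 had 3869, and EP+TPA mouse 323, with Ramp1 at 3.44, had 4215. The part of these marker sums in the Ramp1 levels was not tested. The log2 difference between EP and sham was 0.48 (SE 0.47, adjusted p = 0.949 in limma).

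Cck was the gene with the largest MSC difference between an antagonist and EP. It was 24.1, 27.9 and 24.8 with EP+TPA and 24.3 and 18.2 with EP in the larger set, and 10.02 with EP+TPA against 5.14 and 3.48 with EP in the other. The log2 difference was 0.95 (SE 0.28, adjusted p = 0.419 in limma). Dnajc12 had a difference of 0.56 (SE 0.22, adjusted p = 0.635 in limma) in the same contrast. Neither passed.

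Fam25c and Upk3a stayed at the bottom of the list in MSC. In the larger set Fam25c was 40.4 to 41.6 in all treated libraries, and 47.9, 40.4 and 44.9 in sham, where 40.4 is the lowest value. In the set shared with LP it was between 16.9 and 17.8 in all 6 MSC libraries, sham included. So the sham level seen in LP, at least 73.0 in every library, had no counterpart in the 1 sham MSC library of that set, at 17.7.

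**Figure D3:**
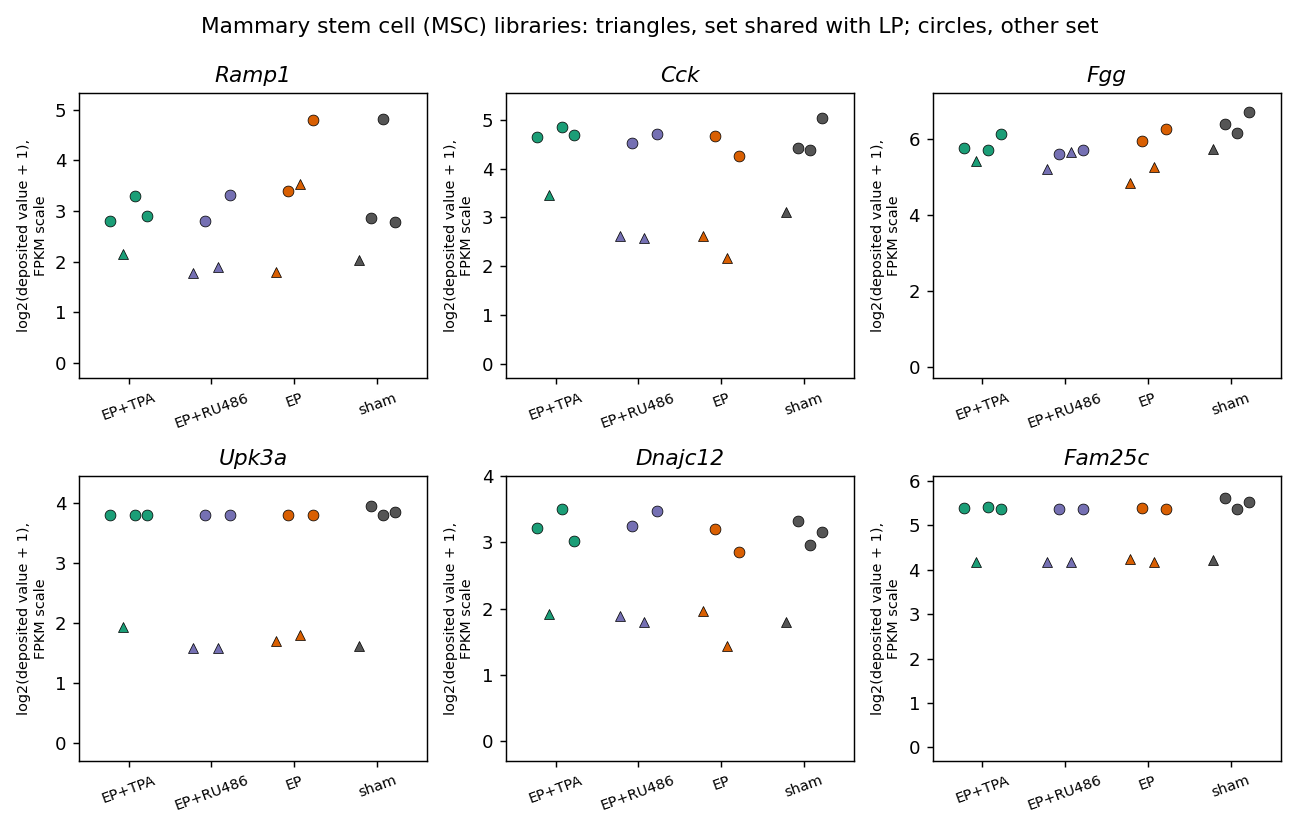
Levels of the 6 genes in the mammary stem cell libraries, as log2(deposited value + 1) on the FPKM scale; triangles are libraries of the set shared with LP and circles those of the other set, and levels can be compared only among like symbols. The treatments overlap, and the high Ramp1 points are from EP mice 327 and 322 and sham mouse 326.

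MSC and LP libraries of the same set came from 6 mice, 1 of them EP+TPA, 2 EP+RU486, 2 EP and 1 sham. Dnajc12 and Cck were lower in MSC than in LP in 6 of 6 mice, and Ramp1 in 5 of 6, in levels as deposited. After rescaling the counts were 4 of 6 for Dnajc12 and 5 of 6 for Cck and for Ramp1. As deposited Dnajc12 was 1.70 to 2.91 in MSC and 4.02 to 15.1 in LP, and Cck was 3.48 to 10.02 in MSC and 11.2 to 116 in LP. Fgg as deposited was higher in MSC in 4 of 6 mice, the antagonist-treated ones and EP mouse 322, at 27.5 to 52.5 in MSC and 23.7 to 155 in LP.

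The LP libraries in these pairs took part in the choice of the genes, so the fits below are no independent test of them. The fit held the fraction alone, without a term for mouse or treatment, so its SE and p-values do not use the pairing. After rescaling none of the 6 was called, where limma called 36.6% of all 11760 genes tested. The log2 difference was -0.72 for Dnajc12 (SE 0.27, adjusted p = 0.0537 in limma), -1.16 for Cck (SE 0.53, adjusted p = 0.108 in limma) and 0.76 for Fgg (SE 0.45, adjusted p = 0.210 in limma). The call depended on the scaling. On values as deposited Cck, Dnajc12 and Ramp1 were called lower in MSC, at -1.71, -1.20 and -1.34, or 3 of 6 genes. On that scale 56.1% of all genes were called, 1279 higher and 5313 lower in MSC, with a median of -0.47 over all genes. After rescaling 2464 were higher and 1843 lower, with a median of 0.02. The MSC libraries of mice 323 and 324 had the largest multipliers of all libraries, 1.96 and 1.59.

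**Figure D4:**
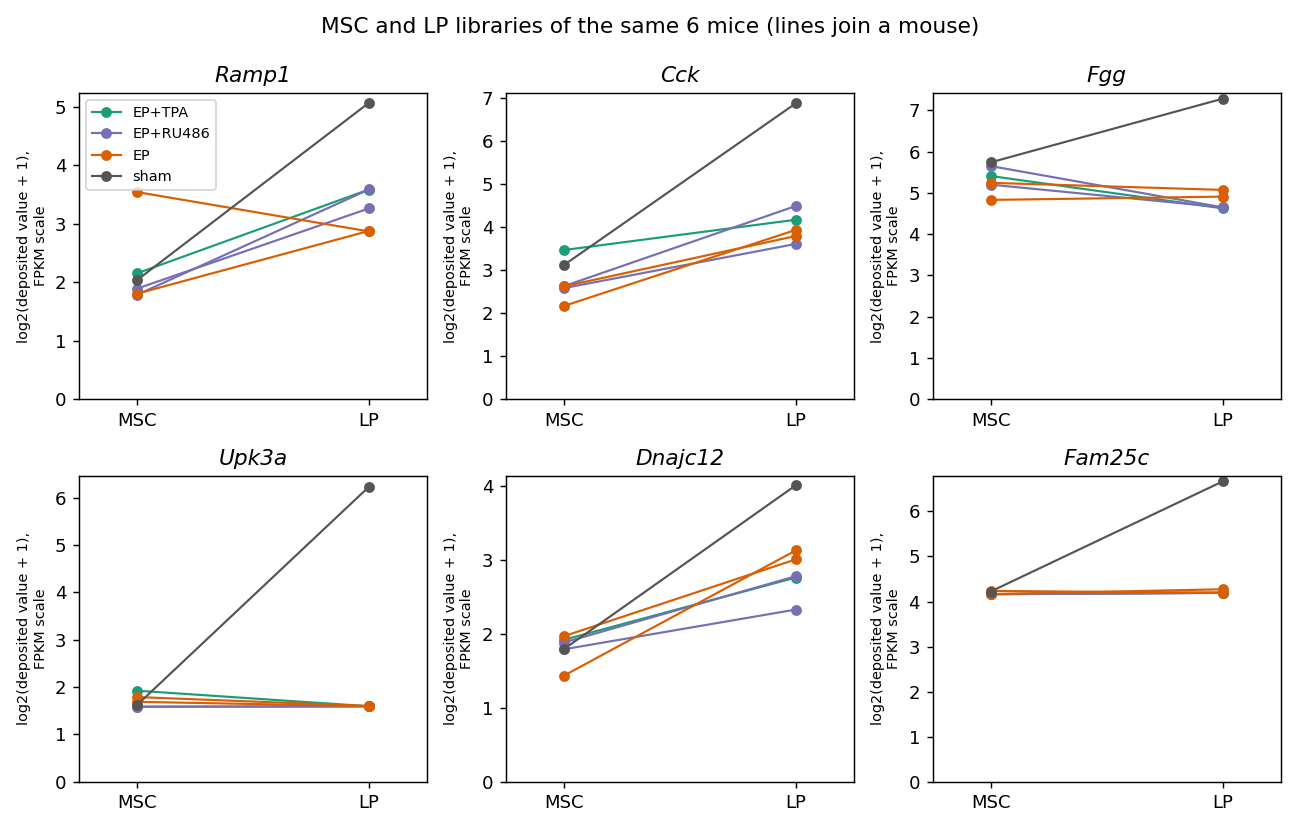
MSC and LP levels of the 6 genes in the same 6 mice, as log2(deposited value + 1) on the FPKM scale, with lines that join the libraries of 1 mouse and colours for treatment. The lines of Dnajc12 and Cck run upward toward LP in 6 of 6 mice, and the sham mouse stands above the others in LP for each gene.

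The fibrinogen and coagulation list held 19 genes, of which 9 were tested in LP. In each comparison with sham there, 1 rose and 1 fell, with a list median of 0.13 for EP+TPA, -0.22 for EP+RU486 and 0.21 for EP, against medians of 0.00, -0.01 and 0.01 over all genes. Among all LP genes limma called 4.94% with EP+TPA, 10.4% with EP+RU486 and 32.3% with EP. The gene that fell was Fgb, the fibrinogen beta chain and a neighbour of Fgg on chromosome 3. Fgb was 14.0 to 14.8 with EP+TPA, 13.9 to 14.1 with EP+RU486, 14.2 to 16.8 with EP, and 88.7, 68.2, 59.2 and 234 with sham. Its log2 difference was -2.66 with EP+TPA, -2.68 with EP+RU486 and -2.60 with EP (SE 0.27, adjusted p in limma 3.82e-05, 2.39e-05 and 4.63e-06). In LM Fgb was listed at 0 in every treated library but that of EP mouse 311, and at 119 to 407 in sham. Fga, the alpha chain, was at its lowest value of 0.00323 in all LP libraries. The gene that rose in LP was F3, the tissue factor that starts coagulation, by 1.43 with EP+TPA, 1.48 with EP+RU486 and 1.21 with EP on the log2 scale (SE 0.19). In MSC Fgb differed from sham by -0.03 with EP+TPA, -0.03 with EP+RU486 and -0.02 with EP, and no gene of the list was called.

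Hepatocyte marker sums in sham overlapped those of each treated group but for EP in LP, where all sham libraries were lower. The summed level of 9 hepatocyte markers in LP was 3.21 to 4.03 with EP+TPA, 3.38 to 4.52 with EP+RU486, 3.63 to 4.11 with EP and 3.11 to 3.55 with sham. In LM it was 6.48 to 12.98 with EP+TPA, 9.06 to 26.0 with EP+RU486, 7.04 to 8.26 with EP and 6.81 to 9.32 with sham, with Ttr and Cyp3a11 at 0 in all sham libraries.

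In the calcitonin peptide list, 6 of 10 genes were tested in LP. Calca, which encodes calcitonin and the peptide sensed by Ramp1 with Calcrl, rose with EP against sham, by 3.55 on the log2 scale (SE 0.92, adjusted p = 0.00867 in limma). Calca was 3.56 to 3.75 with EP+TPA, 3.67, 3.56, 3.84 and 41.9 with EP+RU486, 132, 3.99, 86.6 and 296 with EP, and 3.61 to 3.73 with sham. The level was high in 3 of 4 EP libraries and in EP+RU486 mouse 304. Against EP the log2 difference was -3.56 with EP+TPA and -2.79 with EP+RU486 (adjusted p in limma 0.0145 and 0.0433), where 18.5% and 21.1% of all tested genes were called. So in 3 of 4 EP libraries the ligand gene was high, while Ramp1 was low in all 4. The part of the LP mature marker sums in the Calca result was not tested. Calcrl, the receptor itself, was 3.61 to 6.74 with EP+TPA, 3.58 to 6.92 with EP+RU486, 2.65 to 12.0 with EP and 2.61 to 7.66 with sham in LP, and it was not called. Ramp2 and Ramp3, which pair Calcrl with adrenomedullin, were not called against sham in LP or LM. Calcr, the calcitonin receptor, reached at most 0.108 in LM and 0.0581 in LP.

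In LM the ligand gene Calca was listed at 0, 0, 68.7 and 0 with EP+TPA, at 0 in all EP+RU486 libraries, at 128, 0 and 282 with EP, and at 0 in sham. The EP+TPA library with Calca was that of mouse 332. None of the 6 tested genes of the list was called with EP+TPA or EP against sham in LM, where limma called 16.1% and 19.7% of all genes. With EP+RU486 it called 21.5%. Calcrl was then called higher than sham by 1.04 (SE 0.32, adjusted p = 0.0313 in limma). The summed level of 8 endothelial markers, a cell type rich in Calcrl, was 486 to 820 with EP+RU486 and 361 to 456 with sham in those LM libraries. Its part in the Calcrl result was not tested.

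The fit of the MSC and LP pairs held the fraction alone, as above. In it 4 of the 6 tested calcitonin genes were higher in MSC, where 36.6% of all genes were called in either direction. They were Ramp2 (2.32, SE 0.45), Ramp3 (2.40, SE 0.40), Calcrl (1.40, SE 0.50) and Adm, the adrenomedullin gene (1.49, SE 0.30), with adjusted p in limma of 0.00162, 0.000565, 0.0432 and 0.00193. Ramp1 was the member of its family whose fitted difference pointed the other way, at -0.82 (SE 0.43, adjusted p = 0.156 in limma), and it was not called. Its LP levels took part in the choice of the genes. Of 8 endothelial markers 7 were also called higher in MSC in these pairs, with a median log2 difference of 2.07, and their part in the result was not tested.

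**Figure D5:**
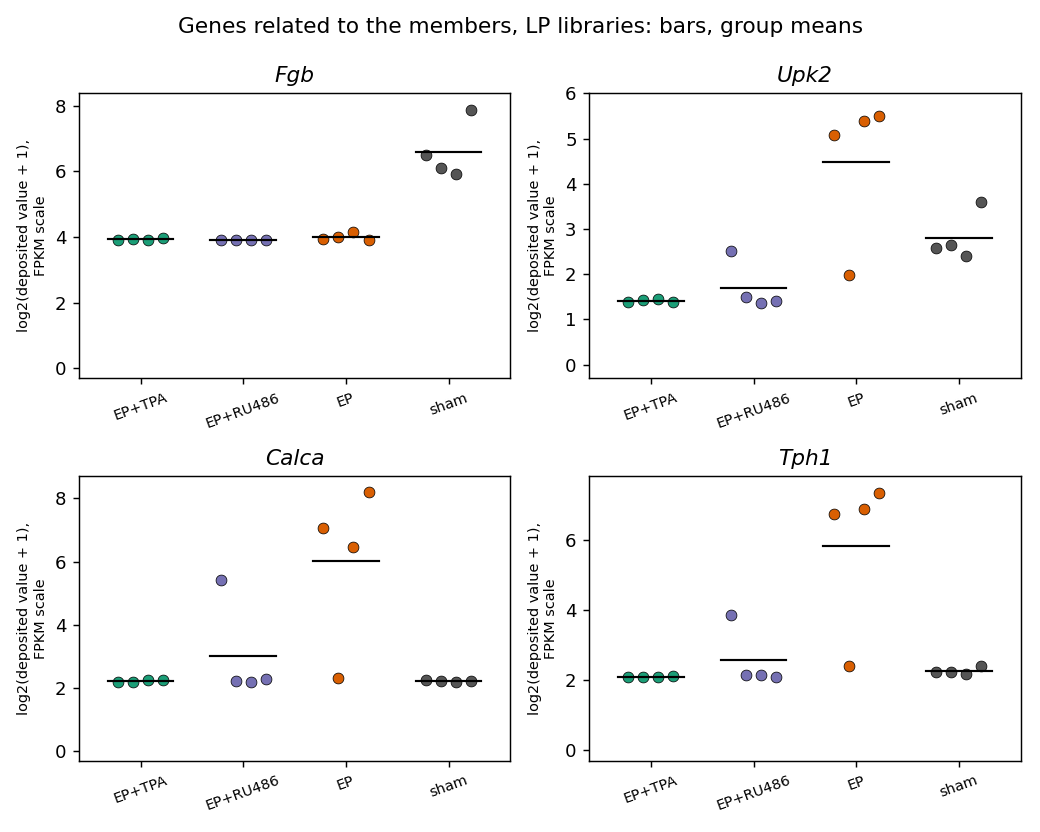
Levels of Fgb, Upk2, Calca and Tph1 in the luminal progenitor libraries, as log2(deposited value + 1) on the FPKM scale; each point is 1 mouse and bars are group means. Fgb is high in sham alone, while Calca, Tph1 and Upk2 are high in 3 of 4 EP libraries.

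The uroplakin list had 3 of 8 genes tested in each luminal fraction, Upk2, Krt7 and Krt19. Upk2, a uroplakin like Upk3a, shared its course in part. In LP Upk2 was 1.61 to 1.74 with EP+TPA, 1.56 to 4.69 with EP+RU486, 32.9, 2.96, 41.1 and 44.3 with EP, and 4.29 to 11.1 with sham. Against EP it fell with both antagonists, with a log2 difference of -2.84 for EP+TPA and -2.59 for EP+RU486 (adjusted p in limma 0.00279 and 0.00479), and EP against sham did not pass (1.45, SE 0.56, adjusted p = 0.0607 in limma). The part of the LP mature marker sums in these Upk2 levels was not tested. In LM Upk2 was 0, 0, 10.3 and 0 with EP+TPA, 0 in all EP+RU486 libraries, 22.6, 8.42 and 10.05 with EP, and 10.9 to 30.8 with sham. EP left Upk2 in LM at levels that overlapped sham, while Upk3a was listed at 0. With the antagonists Upk2 in LM was called lower than sham (adjusted p in limma 0.00160 for EP+TPA and 0.000281 for EP+RU486). Krt7, a simple epithelial keratin, fell against sham in LM with EP+TPA (-4.17, SE 1.03, adjusted p = 0.0169 in limma) and EP+RU486 (-6.01, SE 1.03, adjusted p = 0.00165 in limma).

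The list of aromatic amino acid hydroxylases and their cofactor enzymes had 7 of 10 genes tested in LP. Tph1, the tryptophan hydroxylase of serotonin synthesis, rose with EP against sham by 3.29 in LP (SE 0.78, adjusted p = 0.00511 in limma) and by 5.05 in LM (SE 1.16, adjusted p = 0.0108 in limma). In LP Tph1 was 3.28 to 3.33 with EP+TPA, 3.31 to 13.7 with EP+RU486, 107, 4.32, 118 and 162 with EP, and 3.55 to 4.33 with sham. Against EP the difference was -3.55 with EP+TPA and -3.15 with EP+RU486 in LP (adjusted p in limma 0.00562 and 0.0106). Dnajc12 was low in the same libraries. The EP library with Tph1 at 4.32 came from mouse 311, whose LP mature marker sum of 305 was the lowest of the EP group. The part of the LP mature marker sums in the Tph1 result was not tested. Gch1, which starts synthesis of the hydroxylases' cofactor tetrahydrobiopterin, fell in LP with EP (-1.74, SE 0.39, adjusted p = 0.00374 in limma) and EP+RU486 (-1.31, SE 0.39, adjusted p = 0.0467 in limma). With EP+TPA the Gch1 difference was -0.70 and did not pass (adjusted p = 0.372 in limma).

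Of 24 other DNAJC co-chaperone genes 22 were tested. With EP against sham in LP 5 rose and 1 fell, and with EP+TPA or EP+RU486 none passed. The 6 of 22 called with EP stand beside 32.3% of all genes, and the antagonist groups had 4.94% and 10.4% of all genes called. Dnajc9, a histone chaperone, rose by 0.91 with EP (SE 0.14, adjusted p = 0.000209 in limma), and Dnajc10, a disulfide reductase of the endoplasmic reticulum, by 0.72 (SE 0.22, adjusted p = 0.0184 in limma). The list's median was -0.03 with EP+TPA, 0.01 with EP+RU486 and 0.04 with EP.

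Of 11 genes of the cholecystokinin list 4 were tested in LP, and 1 fell with EP against sham, where 32.3% of all genes were called. That was Tpst2, a tyrosine sulfotransferase of the kind that sulfates cholecystokinin (-0.96, SE 0.25, adjusted p = 0.00822 in limma). Cpe, the carboxypeptidase that trims peptide hormones, was higher than EP by 1.72 with EP+TPA and 1.82 with EP+RU486 in LP (adjusted p in limma 0.0112 and 0.00754), and its differences from sham did not pass. Cckar, the receptor, was at most 0.0376 in LP. Cckbr was not found among the listed genes.

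Esr1, the receptor of estradiol, was lower than sham with both antagonists in LP and LM, and Pgr, the receptor of progesterone, in LM. Both are among the 11 mature markers. In LM limma called 8 of those 11 lower than sham with EP+TPA and 9 with EP+RU486, with medians of -3.03 and -3.40. Among all LM genes it called 16.1% and 21.5% in either direction. In LP 3 of the 11 were called lower with each antagonist, where 4.94% and 10.4% of all genes were called. With EP in LP 4 were higher and 1 lower, where 32.3% were called. The part of the marker shift in the receptor results was not tested. In LP Esr1 was 2.62 to 6.62 with EP+TPA, 2.95 to 4.58 with EP+RU486, 3.45 to 15.2 with EP and 8.21 to 17.7 with sham. It differed from sham by -1.52 with EP+TPA and -1.59 with EP+RU486 (SE 0.31, adjusted p in limma 0.0102 and 0.00508), and with EP the difference was -0.67 (adjusted p = 0.118 in limma). In LM Esr1 was 0.528 to 1.33 with EP+TPA, 0.485 to 2.06 with EP+RU486, 2.00 to 10.9 with EP and 14.3 to 31.3 with sham. All 3 differences from sham passed there, at -3.62, -3.40 and -2.32. Pgr in LP rose with EP against sham by 1.08 (SE 0.34, adjusted p = 0.0225 in limma) and did not pass with either antagonist. In LM Pgr was 0 to 0.776 with EP+TPA, 0 to 0.188 with EP+RU486, 1.80 to 10.3 with EP and 1.28 to 5.26 with sham. It differed from sham there by -2.01 with EP+TPA and -2.14 with EP+RU486 (SE 0.40, adjusted p in limma 0.00381 and 0.00198), and with EP the difference was 0.02 (adjusted p = 0.986 in limma).

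The genes whose course was most like that of each member were found by the mean of Pearson r over the 15 LM and over the 16 LP libraries, among 11472 genes tested in both. The libraries of a fraction share their set and their treatment groups, so the values describe likeness and carry no p. Fgb was closest to Fgg (0.984) and to Fam25c (0.971), followed by Kcnh1, a potassium channel gene, for Fgg (0.974) and Pir for Fam25c (0.959). Pir and Pcdhac2 were closest to Upk3a (0.976 and 0.972), and Clip4 and Pcdhac2 to Dnajc12 (0.965 and 0.960). Ramp1 was closest to Fgfr1, a fibroblast growth factor receptor (0.924), and to Enpp5 (0.916). Cck had a weaker closest match than the other 5, Asic1 (0.884), an acid-sensing ion channel gene.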

How the data were processed

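Libraries were made from FACS-sorted cells with SMART-Seq v4 and Nextera XT kits and sequenced as paired ends on an Illumina instrument, per the labels' protocols. STAR, Cufflinks, DESeq2 and the mm9 build are named in the submitters' processing notes, without versions or order. The deposited table, although named for counts, holds FPKM values that the authors had adjusted by gene. Shared identical values (1382 to 6488 within sets, 0 between) revealed 3 sets of libraries. The table has 22007 rows, of which 27 with date-like symbols were left out. Each library was rescaled within its set by a median ratio (multipliers 0.762 to 1.96). Where at least 2 libraries shared a gene's lowest value, only the excess over it was multiplied. Levels in the text are as deposited, and log2 differences come from the rescaled values. Genes with at least 3 libraries at 1 or more and 3 above the shared lowest value were fitted, and all 6 genes passed in every fit. Log2(value + 1) was fitted with limma 3.58.1 in R 4.3.3 (trend, robust), with a set term in MSC, and p-values were adjusted over all genes tested by Benjamini-Hochberg, with a call under 0.05. Fold changes on this scale understate changes of low genes. The counts-based test was not used because the values are not counts. The pipeline was tested on simulated data. MSC and LP libraries from the same mice are paired by animal, and the correlations of their deviations were 0.352, -0.0131, 0.228, 0.285, 0.255 and 0.139. The main fit of these libraries held the fraction alone and did not use the pairing. The mice are taken as separate animals from their numbers. Named genes were the 6, list genes that passed in a comparison with sham and fixed receptor, ligand and partner genes, and the 2 most similar genes of each, of which 1 is not reported here. Genes and lists were chosen with earlier results of these data known. Alternatives were no rescaling, another floor, a pseudocount of 0.1, no filter, no trend, library weights, 2-group fits, set choices, a replicate block and leaving out each library.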

Additional observations from a re-analysis of the deposited data

Results flagged for a closer look

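In LM and LP, 36 gene and group combinations with 4 libraries and a spread above 0 were screened for a single library far from the other 3, and 3 were picked out, where chance gives about 1 in 20. In LP, Fam25c with EP+TPA was 21.4 in mouse 328, and the nearest other library was at 17.7. Upk3a with EP in LP was 2.44 in mouse 327, and the nearest other library was at 2.03. Upk3a with EP+TPA in LP was 2.35 in mouse 336, and the nearest other library was at 2.02. All 3 are small steps above the lowest value of the set and far below the lowest sham library, which was 73.0 for Fam25c and 13.1 for Upk3a. The MSC groups were not screened, because each mixes libraries of both sets.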

How the results depend on the processing

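Medians over the 6 genes in LM rested on the constant added to values listed at 0. With a pseudocount of 0.1 they were -7.32 for EP+TPA, -7.50 for EP+RU486 and -6.40 for EP against sham. When only the 2 groups were in the fit, genes at 0 in both dropped out, and the median against EP was 1.11 for EP+TPA and 2.30 for EP+RU486. In MSC, library weights gave 1 called gene of the 6 for EP against sham. For MSC against LP, the 6 genes gave 3 calls with no rescaling, 3 with the lowest value of the set as floor for every gene (an alternative added after seeing the data), 1 with a pseudocount of 0.1 and 2 with library weights. Leaving out each mouse gave 0 to 1, and the replicate block for the paired mice gave 0 and changed no call. Near-zero differences changed sign. Fgg in LP between EP+TPA and EP+RU486 was -0.00735 with no rescaling and -0.00520 with the other floor. In MSC, Ramp1 for EP+TPA against sham was 0.0761 with library weights and ran between -0.298 and 0.359 when a library was left out (0.359 without sham mouse 326), and for EP+RU486 between -0.504 and 0.0965. Dnajc12 for EP+RU486 was -0.0617 with no set term. Cck for EP+RU486 was 0.0255 in the larger set, and -0.269 to 0.0490 when a library was left out. Upk3a for MSC against LP was between -0.848 and 0.197 (without mouse 305). The cause of these changes was not tested. Over all genes, calls varied by more than 1.5 times. Library weights called 4211 genes for EP, 3642 for EP+TPA and 5107 for EP+RU486 against sham in LM, where 2349, 1917 and 2563 were called, and leaving out a library gave 880 to 2854 for EP. In LP, EP+TPA against sham called 574 genes, 1465 with weights and 318 to 704 when a library was left out, and EP+RU486 called 1203, 2658 with weights, 1989 in the fit of 2 groups and 649 to 1049 when a library was left out. The depth is unknown, so no limit from counting can be given.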
